A study of Mus musculus with 9 samples.

Results

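Cell junction genes were described as 54 members of the 17146 genes with a value in RNA-seq libraries of mouse epididymis, taken at its initial segment. Members were chosen by symbol, as claudins, zonula occludens and MARVEL-domain genes, Par and Crumbs polarity genes, alpha, beta and gamma connexins, cadherins other than Cdh5, and Ocln, F11r, Jam2, Jam3, Cgn and Pals1. Of 98 annotated symbols that fit this rule, 54 had a row in at least 1 library and 44 had none. The 54 members were 14 claudins or claudin-domain genes, 11 other tight junction genes, 7 polarity genes, 7 connexins and 15 cadherins. A gene's value was the sum of its first-exon FPKM (fragments scaled to length and library size), or of its last-exon FPKM where that was larger. The first and last exon of Cldn10 held the same FPKM in every library. Event values are therefore taken as levels of the transcripts that hold the event, not as separate measurements of single exons. This reading was not tested. The 2 ends of a gene need not match, and in WT library 3 F11r was at 17.3 FPKM by its first exon and 51.4 by its last. A gene was tested where at least 3 libraries reached 1 FPKM, which held for 35 members and 12098 genes in all.

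Tight junctions close the space between epithelial cells, and their claudins line up in strands that either seal it or form pores for ions and water. Occludin and other MARVEL-domain proteins lie in the same strands, zonula occludens scaffolds tie them to actin, and the Par and Crumbs complexes place them at the border of the apical membrane. Adherens junctions below them hold cells together through cadherins, and connexins form gap junction channels that pass small molecules between cells. In the epididymis, junctions between principal cells form the blood-epididymis barrier, which keeps the fluid around maturing sperm apart from blood. The initial segment is the first stretch of this duct.

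All 9 libraries came from initial segments of C57BL/6 mice at 4 weeks of age, with 3 libraries a group. They were wild type (WT), Mst1/2 double knockout (dKO) or Mst1/2; Yap triple knockout (tKO). Mst1 and Mst2 are the Hippo pathway kinases encoded by Stk4 and Stk3, and they restrain Yap, a transcriptional co-activator encoded by Yap1. The breeding scheme, any Cre driver, the cells that lost each gene, and pooling of animals are not stated in the labels. Whether the libraries of a group stem from different animals is not in the labels, and p-values here speak only of spread between samples, which may be technical. Because the tissue was taken in bulk, fewer cells of a type and less RNA per cell cannot be told apart.

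The targeted genes followed the labels. Transcripts that skipped an exon pair of Stk4 were at 0% in WT, at 59.4% to 68.6% in dKO and at 58.7%, 58.0% and 24.5% in tKO, where library 3 was lowest. For Stk3 the skipping share was 0% in WT, against 48.5% to 60.9% in dKO and 36.8% to 42.2% in tKO. Yap1 ranged from 23.2 to 26.9 FPKM in WT and from 25.2 to 27.9 in dKO, against 8.33 to 8.86 in tKO. Leaving out tKO library 3 changed no call among the members. The 7 principal cell markers had a summed level of 23941 to 25411 FPKM in WT, against 15041 to 16438 in dKO and 15463 to 19368 in tKO. Most of this sum was Gpx5, which averaged 16957, 14005 and 12727 FPKM and passed in no comparison (lowest limma adjusted p of 0.437). Per library, 13598 to 15213 genes were above 0, and the depth behind the FPKM is unknown.

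The sequences that bear on the findings are the start region of Gjb6, the member whose call held in the most repeated fits, the start region of the upstream first exon of Cldn2, the most abundant member, and the alternative exon of Tjp1. The Gjb6 and Cldn2 windows hold the 250 bases before the RefSeq start on GRCm38.p6, and capitals mark a TEAD motif. In the Tjp1 line, capitals mark the alternative exon and lower case the 20 bases on either side of it in the spliced transcript, from the GENCODE M21 transcripts.
Gjb6, chr14:57133612-57133861, minus strand: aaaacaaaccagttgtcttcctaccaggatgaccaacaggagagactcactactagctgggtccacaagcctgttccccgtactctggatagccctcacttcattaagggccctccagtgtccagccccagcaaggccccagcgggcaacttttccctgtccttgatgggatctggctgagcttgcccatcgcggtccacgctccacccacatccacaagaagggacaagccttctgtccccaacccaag
Cldn2, chrX:139800558-139800807, plus strand: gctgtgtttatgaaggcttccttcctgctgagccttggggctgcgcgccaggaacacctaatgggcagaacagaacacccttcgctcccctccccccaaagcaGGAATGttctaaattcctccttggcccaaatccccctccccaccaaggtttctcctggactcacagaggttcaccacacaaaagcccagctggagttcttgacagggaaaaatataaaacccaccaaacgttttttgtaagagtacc
Tjp1 alternative exon, chr7:65314093-65314332, minus strand: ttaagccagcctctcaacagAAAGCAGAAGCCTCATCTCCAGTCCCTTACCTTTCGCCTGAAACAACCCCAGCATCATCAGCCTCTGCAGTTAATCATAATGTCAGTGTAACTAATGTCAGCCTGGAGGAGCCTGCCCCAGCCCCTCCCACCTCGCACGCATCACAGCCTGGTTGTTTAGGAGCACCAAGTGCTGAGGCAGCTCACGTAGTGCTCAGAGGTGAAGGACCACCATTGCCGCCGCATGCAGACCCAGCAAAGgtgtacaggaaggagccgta

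TEAD factors are the DNA-binding partners of Yap. The TEAD motif was searched as GGAATG or CATTCC, ETS as CCGGAA or TTCCGG and AP-1 as TGANTCA, whose N stands for any base and which reads the same on both strands. The Cldn2 window held 1 TEAD match and no ETS or AP-1 match, and the Gjb6 window held none of them. Of 32817 RefSeq promoter windows of the same length, 12.6% held the TEAD letters, 12% the ETS letters and 6.75% the AP-1 letters. The Gjb6 window was 56.8% GC with 5 CpG and the Cldn2 window 52.0% GC with 4 CpG, beside medians of 52.4% GC and 6 CpG over all promoter windows. RefSeq windows were matched for 11 of the 16 members given library by library, and the TEAD letters were in 3 of these windows (Cldn2, Cldn7 and Cldnd1), the ETS letters in 1 (Cldn7) and the AP-1 letters in 2 (F11r and Gja1). The window of Pard6b held none of them. Such a match is a description of the letters and shows no binding.

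In WT, the members ranged over more than 2 orders of magnitude in FPKM, a length-corrected level. Cldn2, a claudin that forms a pore for cations and water, was highest at 307 ± 51.8 FPKM (SD, n = 3). Next came Gja1, the most widely expressed connexin, at 134 ± 16.3 FPKM, and Cdh16, a cadherin best known from kidney tubules, at 78.7 ± 24.6 FPKM. Cdh1, which encodes E-cadherin, followed at 60.3 ± 2.98 FPKM and F11r, which encodes the adhesion molecule JAM-A, at 44.8 ± 7.93 FPKM. The order was firm only in places: among 34 of the tested members, 8 of 33 neighbouring pairs had WT ranges that did not overlap. Cldn2 lay above Gja1, Gja1 above Cdh16 and Cdh1 above F11r in every WT library, whereas Cdh16 overlapped Cdh1. From F11r down to Cldn10 each gene's range overlapped the next, with Cldn1, Cldn7 and Cldn10 at 35.7 ± 1.57, 34.4 ± 5.66 and 29.8 ± 1.64 FPKM. The coefficient of variation between WT libraries had a median of 16.6% over these 34 members, from 1.37% for Tjp1 to 86.7% for Cdh24.

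**Figure D1:**
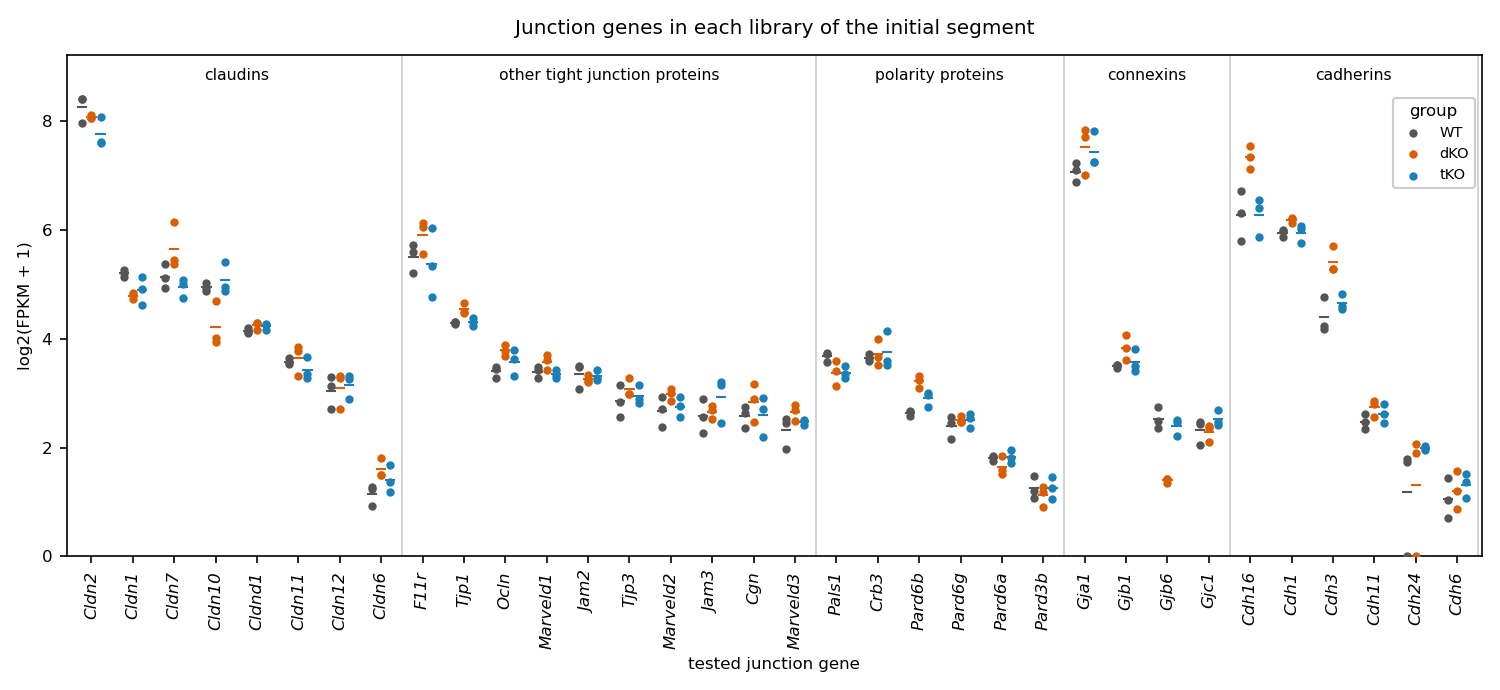
Level of 34 of the 35 tested junction genes as log2(FPKM + 1), grouped by role and ordered by WT mean; each point is 1 library (grey WT, orange dKO, blue tKO) and each short line a group mean over 3 libraries. Cldn2 stood highest in every library, and most genes had the 3 groups close together.

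In dKO against WT, 3 members passed the test: Gjb6 fell, and Cdh3 and Pard6b rose. These were 3 of 35 tested members, beside 3.81% of all tested genes called in this comparison (limma on log2(FPKM + 1), Benjamini-Hochberg adjusted p under 0.05). By direction, 2 members were called higher and 1 lower, beside 1.46% and 2.35% of all tested genes. At an unadjusted p under 0.05 in this fit there were 12 of 35 members, beside 18.5% of all tested genes. Groups did not overlap for 12 of 35 members, beside 27.5% of all tested genes. The 9 members with every dKO library above every WT library included Cdh16, Cdh1, Cdh3, Tjp1, Gjb1, Ocln, Pard6b and Cldn6. The 3 with every dKO library below were Cldn1, Cldn10 and Gjb6. The median log2 fold change was 0.15 over the members and 0.03 over all tested genes. A positive log2 fold change was seen in 26 of 35 members and in 54.3% of all tested genes.

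In tKO against WT, 0 of 35 members passed by limma, beside 0.165% of all tested genes, or 0.0827% in either direction. At an unadjusted p under 0.05 in the same limma fit there were 4 of 35 members, beside 13.2% of all tested genes. Groups did not overlap for 5 of 35 members, beside 18.7% of all tested genes: Gja1, Pard6b and Cdh24 were higher in every tKO library, and Cldn1 and Pals1 lower. The median log2 fold change was 0.08 over the members and 0.04 over all genes, and it was positive in 24 of 35 members and 57.5% of all genes.

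In tKO against dKO, Gjb6 rose and no other member passed, which is 1 of 35 beside 2.11% of all tested genes. The call was upward, beside 1.24% of all genes called higher, and 0 members were called lower, beside 0.868% of all genes. The unadjusted limma p was under 0.05 for 7 of 35 members, beside 16.7% of all tested genes. Groups did not overlap for 9 of 35 members, beside 22.1% of all tested genes. Cldn10, Gjb6 and Gjc1 were higher in every tKO library, and Cdh16, Cdh1, Cldn7, Cdh3, Tjp1 and Pard6b were lower. The median log2 fold change was -0.12 over the members and 0.02 over all genes, and 13 of 35 members were positive, beside 53.7% of all genes. The 3 comparisons share their libraries pairwise, so a value far out in dKO enters both comparisons with dKO.

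**Figure D2:**
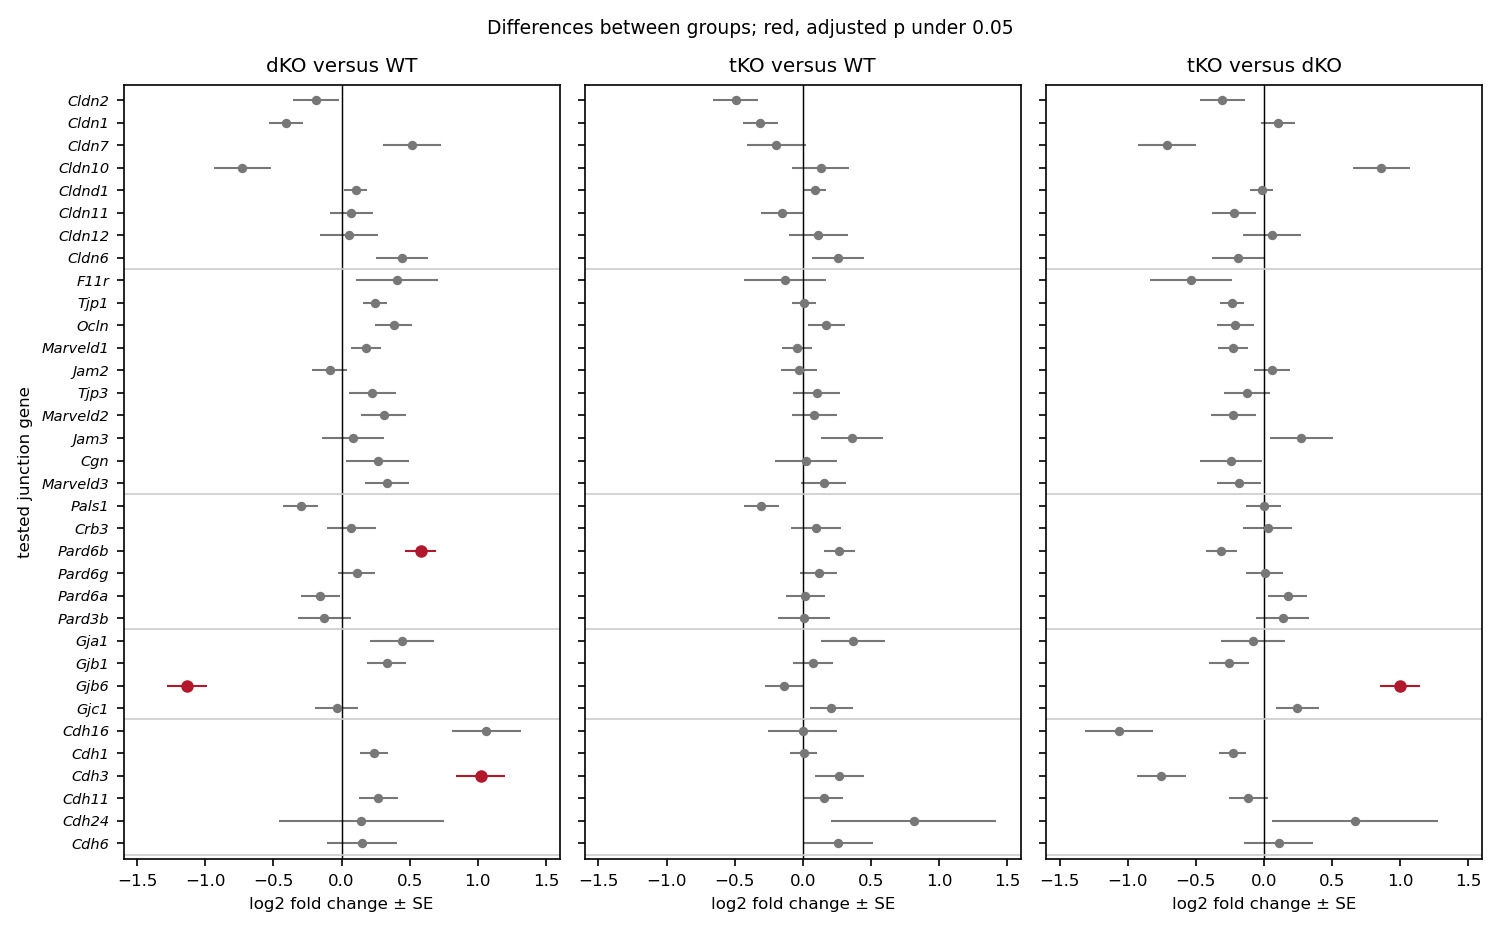
Log2 fold change with its standard error, on the log2(FPKM + 1) scale, for 34 of the 35 tested junction genes in the 3 comparisons; red points passed at adjusted p under 0.05. Gjb6, Pard6b and Cdh3 are red in dKO versus WT, no gene is red in tKO versus WT, and Gjb6 alone is red in tKO versus dKO.

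Among the claudins, 0 of 8 tested members passed in any comparison, and the lowest adjusted p was 0.0749 (limma, Benjamini-Hochberg). Without adjustment, p was under 0.05 for 4 of them in dKO against WT, 2 in tKO against WT and 2 in tKO against dKO, beside 18.5%, 13.2% and 16.7% of all tested genes. Cldn10, a pore-forming claudin made in forms that differ in their first exon, was at 28.3, 31.6 and 29.6 FPKM in WT, at 15.2, 14.4 and 24.7 in dKO, and at 29.8, 28.3 and 41.6 in tKO. All dKO libraries were lowest, and tKO overlapped WT. The log2 fold change was -0.73 ± 0.21 (SE) in dKO against WT and 0.86 ± 0.21 in tKO against dKO, with limma adjusted p of 0.101 and 0.0749. Library 3 of dKO, the highest of its group, decided these: without it the adjusted p was 0.0424 and 0.0336. Its mean share of the summed claudin FPKM was 6.74% in WT libraries, against 4.50% in dKO and 9.46% in tKO, and the shares did not overlap between any pair of groups.

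Cldn1, a sealing claudin without which the skin barrier fails, was at 35.7, 37.3 and 34.1 FPKM in WT. In dKO it was at 27.6, 25.5 and 26.8 FPKM, and in tKO at 33.9, 23.6 and 29.2 FPKM. Both knockouts lay below WT in every library and overlapped each other. Against WT this gave a log2 fold change of -0.41 ± 0.13 in dKO and -0.31 ± 0.13 in tKO, with limma adjusted p of 0.121 and 0.348. A fit of WT and dKO libraries only called it, with an adjusted p of 0.0445. Claudin-1 is also made by basal cells of the epididymis, and the summed level of 4 basal cell markers was 108 to 122 FPKM in WT, against 93.5 to 102 in dKO and 63.8 to 93.1 in tKO. None of these markers passed in any comparison by limma, and they did not move alike. For Krt5, Krt14, Trp63 and Itga6, log2 fold changes against WT were -0.14, -0.32, -0.33 and 0.02 in dKO. With tKO libraries the same genes gave -1.10, -0.85, -0.06 and 0.35. Whether basal cells had a part in the Cldn1 values was not tested.

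Cldn2 was at 248, 336 and 338 FPKM in WT, at 263, 273 and 266 in dKO, and at 191, 195 and 269 in tKO. The groups overlapped in each comparison, and the dKO libraries lay close together inside the WT range. Against WT, the log2 fold change was -0.19 ± 0.17 in dKO and -0.49 ± 0.17 in tKO, with limma adjusted p of 0.602 and 0.284. With the single highest exon event in place of the sum, the dKO value turned to 0.34. The summed claudin FPKM was 392, 476 and 466 in WT, 390, 416 and 401 in dKO and 315, 322 and 410 in tKO, with overlapping groups. Cldn2 supplied 68.8% of this sum in WT libraries, against 66.3% in dKO and 62.3% in tKO. Cldn7, a claudin often found along the lateral membrane, was at 40.5, 33.5 and 29.3 FPKM in WT, 42.7, 69.8 and 40.1 in dKO and 25.7, 32.8 and 31.2 in tKO. The dKO libraries lay above all tKO libraries, with library 2 far above the rest, and overlapped WT. Between tKO and dKO the log2 fold change was -0.71 ± 0.21, with a limma adjusted p of 0.136.

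Of the other tested claudins, Cldnd1, a claudin-domain protein, was at 17.3, 16.4 and 16.2 FPKM in WT, 18.5, 16.9 and 18.5 in dKO and 16.8, 18.1 and 18.3 in tKO. Its groups overlapped and all 9 libraries lay within 16.2 to 18.5 FPKM. Cldn11, known from myelin and Sertoli cells, averaged 10.9, 11.7 and 9.84 FPKM in WT, dKO and tKO, and Cldn12 averaged 7.35, 7.69 and 7.99 FPKM. Cldn6, a claudin of embryonic epithelia, averaged 1.24, 2.05 and 1.68 FPKM, and its dKO libraries lay above its WT libraries without passing the test (limma adjusted p of 0.257).

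The other tight junction genes gave 0 calls among 11 tested members in limma, with 2, 0 and 1 at an unadjusted p under 0.05 in dKO against WT, tKO against WT and tKO against dKO, beside 18.5%, 13.2% and 16.7% of all tested genes. In dKO against WT, 10 of the 11 had a positive log2 fold change, beside 54.3% of all tested genes. The median was 0.24, beside 0.03 over all tested genes. Their summed FPKM was 150, 130 and 156 in WT, 191, 178 and 161 in dKO and 169, 144 and 130 in tKO. All dKO libraries were above WT, with an exact permutation p of 0.1, and overlapped tKO. F11r, valued by its last exon, made up 30.7%, 33.7% and 28.6% of this sum on average in WT, dKO and tKO. Its first exon ran in another order, and the sum was not tested with that value. Tjp1 encodes the scaffold ZO-1. It was at 18.3, 18.6 and 18.8 FPKM in WT, at 24.0, 21.1 and 21.6 in dKO, and at 19.7, 17.8 and 18.8 in tKO. The dKO libraries were the highest and the other groups overlapped. Its log2 fold change in dKO was 0.24 ± 0.09, with a limma adjusted p of 0.179.

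Occludin, a MARVEL-domain strand protein encoded by Ocln, averaged 9.56 ± 0.713 FPKM in WT, against 12.8 ± 0.976 in dKO and 11 ± 1.96 in tKO (SD, n = 3). Every dKO library was above WT, and the limma adjusted p was 0.171.

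F11r was at 47.0, 36.0 and 51.4 FPKM in WT, 68.7, 65.2 and 46.1 in dKO and 64.6, 39.3 and 26.0 in tKO. All groups overlapped, and tKO spread most widely. Its first-exon event ran in another order than its last-exon event, at 40.5, 40.2 and 17.3 FPKM in WT, 26.4, 23.4 and 49.0 in dKO and 19.3, 38.3 and 25.5 in tKO. In dKO the log2 fold change was 0.41 ± 0.30 by the last exon and 0.03 by the first exon. Jam3, another junctional adhesion molecule, was at 4.93, 3.81 and 6.41 FPKM in WT, 5.78, 4.72 and 5.49 in dKO and 4.45, 7.92 and 8.16 in tKO, with overlapping groups. The genes Tjp3, Cgn (cingulin), Jam2 and the MARVEL-domain genes Marveld1, Marveld2 and Marveld3 had group means of 4.06 to 10.9 FPKM and no limma adjusted p under 0.315.

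Among the polarity genes, Pard6b rose in dKO. Its product, at chr2:168081004-168101203 (ENSMUSG00000044641), is a Par complex subunit that binds atypical protein kinase C. The level was 5.41, 5.25 and 4.98 FPKM in WT, 8.43, 7.52 and 8.98 in dKO and 5.71, 6.79 and 6.98 in tKO. No groups overlapped: dKO was highest, tKO in between and WT lowest. Its log2 fold change was 0.58 ± 0.11 in dKO against WT (limma adjusted p of 0.0283), 0.27 ± 0.11 in tKO against WT (0.364) and -0.31 ± 0.11 in tKO against dKO (0.207). The call in dKO did not survive the loss of any single WT or dKO library. The adjusted p was then 0.057, 0.1003 and 0.102 without WT library 1, 2 or 3, and 0.088, 0.0551 and 0.104 without dKO library 1, 2 or 3.

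Pals1, the scaffold of the Crumbs complex, was at 12.1, 10.9 and 12.3 FPKM in WT, 7.79, 11 and 9.64 in dKO and 8.72, 9.16 and 10.2 in tKO. All tKO libraries lay below WT, while dKO overlapped it. Against WT, Pals1 had a log2 fold change of -0.30 ± 0.13 in either knockout against WT, with limma adjusted p of 0.260 in dKO and 0.365 in tKO. As shares of the summed polarity gene FPKM, Pals1 went from 32.1% in WT to 24.8% in dKO and 25.3% in tKO, and Pard6b from 14.2% to 21.9% and 17.5%, with no overlap between WT and either knockout. The exact permutation p was 0.1 for each of these 4 differences, the smallest that 3 against 3 libraries allow. Crb3, the epithelial Crumbs protein, averaged 11.5, 12.3 and 12.7 FPKM in WT, dKO and tKO. The sum over the polarity genes averaged 36.7, 38.1 and 37.2 FPKM in WT, dKO and tKO.

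Among the connexins, Gjb6 fell in dKO, and its tKO libraries overlapped WT. Gjb6 lies at chr14:57123303-57133611 (ENSMUSG00000040055) and encodes a connexin known from the inner ear and from astrocytes. It was at 4.13, 4.6 and 5.73 FPKM in WT, at 1.68, 1.55 and 1.69 in dKO and at 4.69, 3.62 and 4.56 in tKO. The dKO libraries were close together and below all others, and tKO overlapped WT. The mean in dKO was 0.340 times that in WT. The log2 fold change was -1.13 ± 0.15 in dKO against WT and 0.997 ± 0.15 in tKO against dKO, with limma adjusted p of 0.00576 and 0.0135. The fall in dKO passed in all 9 fits that left out 1 library. The rise in tKO against dKO passed in 8 of 9, and without dKO library 2 the adjusted p was 0.0535. In tKO against WT the log2 fold change was -0.14 ± 0.15, with an adjusted p of 0.736.

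Gja1 held most of the summed connexin FPKM, with a share of 87.2% in WT, 90.04% in dKO and 89.1% in tKO libraries on average. It was at 149, 136 and 116 FPKM in WT, 128, 207 and 226 in dKO and 150, 151 and 224 in tKO. The tKO libraries lay above WT, narrowly in libraries 1 and 2, and dKO overlapped WT. Gja1 had a log2 fold change of 0.37 ± 0.24 in tKO and 0.45 ± 0.24 in dKO, with limma adjusted p of 0.540 and 0.362. Gjb1, the main liver connexin, averaged 10.3 ± 0.236 FPKM in WT, against 13.3 ± 2.30 in dKO and 11 ± 1.81 in tKO. Gjc1, a connexin of heart and vessel muscle, averaged 4.02 ± 0.761, 3.88 ± 0.531 and 4.78 ± 0.601 FPKM. Neither passed in any comparison.

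Of the 5 role groups, the cadherins had the largest difference in summed FPKM. Their sum was 200, 143 and 160 FPKM in WT, 278, 271 and 304 in dKO and 187, 157 and 180 in tKO. All dKO libraries were above all others, with an exact permutation p of 0.1 against either group, the smallest possible. Both Cdh16 and Cdh3 had about 2 times the WT mean in dKO, with ratios of 2.05 and 2.07.

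Cdh3 encodes P-cadherin, a classical cadherin of basal and progenitor layers in several epithelia, and lies at chr8:106510891-106557297 (ENSMUSG00000061048). It was at 26.0, 17.8 and 17.2 FPKM in WT, at 37.7, 50.7 and 37.6 in dKO and at 27.3, 23.3 and 22.4 in tKO. The dKO libraries did not overlap the other groups, and tKO overlapped WT. For Cdh3 the log2 fold change was 1.02 ± 0.18 in dKO against WT (limma adjusted p of 0.0198), 0.27 ± 0.18 in tKO against WT (0.567) and -0.75 ± 0.18 in tKO against dKO (0.0712). The call in dKO was lost without WT library 2 (adjusted p of 0.0890), WT library 3 (0.0778), dKO library 2 (0.0645) or dKO library 3 (0.0574). The difference between tKO and dKO passed without WT library 1, at 0.0403.

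Cdh16 was at 103, 54.1 and 78.6 FPKM in WT, 160, 138 and 185 in dKO and 83.1, 56.9 and 92.4 in tKO. The dKO libraries were all above the rest, and tKO lay within the WT range. The log2 fold change was 1.06 ± 0.25 in dKO against WT and -1.06 ± 0.25 in tKO against dKO, with limma adjusted p of 0.0566 and 0.0707. Without WT library 1 the adjusted p in dKO against WT was 0.0355, and without tKO library 2 it was 0.0462.

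Cdh1 starts 46053 bases beyond the end of Cdh3 on chromosome 8. It was at 61.7, 62.4 and 56.9 FPKM in WT, 72.9, 72.5 and 68.4 in dKO and 65.7, 63.9 and 52.8 in tKO. The dKO libraries were again the highest, but the log2 fold change was only 0.24 ± 0.10, with a limma adjusted p of 0.259. Cdh24, a low type II cadherin, was at 2.47, 2.32 and 0 FPKM in WT, 0, 2.71 and 3.19 in dKO and 2.98, 2.88 and 3.06 in tKO. The tKO libraries were above WT, and 1 library in each other group had a value of 0, which can stand for a missing row. Its log2 fold change in tKO was 0.81 ± 0.61, with a limma adjusted p of 0.612. Cdh11, a cadherin of mesenchymal cells, averaged 4.55, 5.70 and 5.19 FPKM, and Cdh6 averaged 1.13, 1.36 and 1.51 FPKM.

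**Figure D3:**
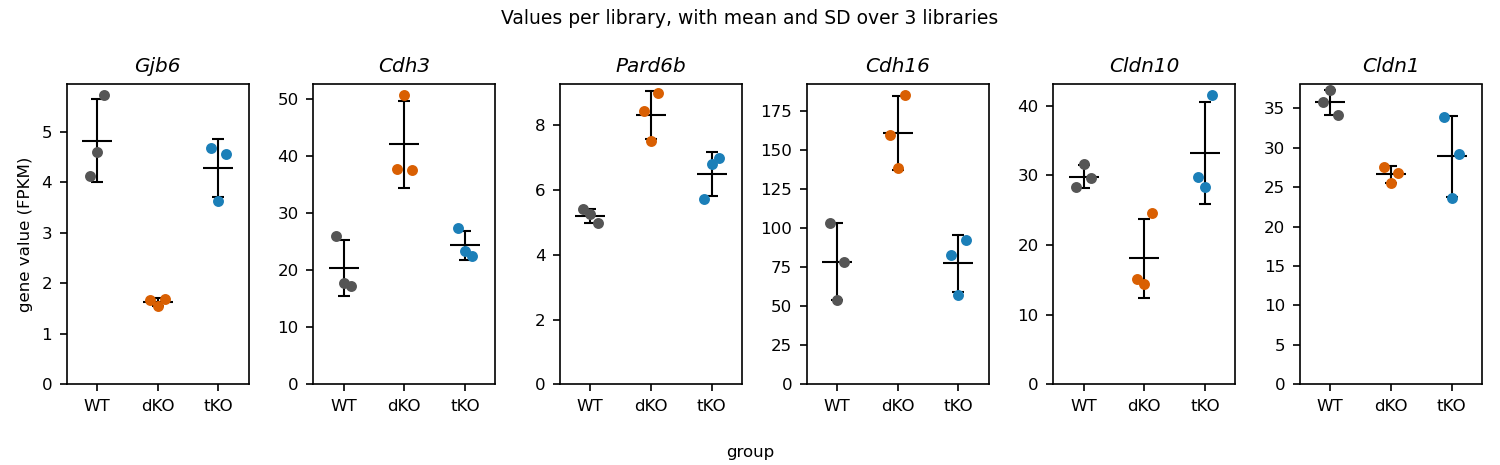
Gene values in FPKM for 6 members, with 1 point per library and the mean ± SD over 3 libraries in black; each axis starts at 0. Gjb6 and Cldn10 are lowest in the dKO libraries, Cldn1 is below WT in both knockouts, which overlap, and Cdh3, Pard6b and Cdh16 are highest in the dKO libraries, while tKO overlaps WT for Gjb6, Cdh3, Cdh16 and Cldn10.

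The first exons of several members varied between libraries more than their sums did. For Cldn2, the upstream first exon at chrX:139800828-139801010 held 36.3%, 76.4% and 38.1% of first-exon FPKM in WT, 85.5%, 84.5% and 86.4% in dKO and 60.02%, 31.0% and 75.9% in tKO. The dKO libraries were close together and above all others, and WT and tKO overlapped. The downstream first exon at chrX:139806081-139806259 held 43.8%, 23.6% and 61.9% in WT, 14.5%, 15.5% and 13.6% in dKO and 40.0%, 69.0% and 24.1% in tKO. Neither share passed: the limma adjusted p was 0.884 for both in dKO against WT, over 5808 first exons. The printed Cldn2 window lies 20 bases before the upstream exon. Over these first exons, 0 of 22 in 8 members passed in any comparison, beside 0.0517%, 0.0861% and 0.103% of all first exons tested in dKO against WT, tKO against WT and tKO against dKO. At an unadjusted p under 0.05 in limma there were 1, 2 and 4 of the 22, beside 5.15%, 5.04% and 5.77% of all first exons tested. The 4 in tKO against dKO were first exons of Cldn7, Cldn2 and Jam2. Shares of the same gene depend on each other, so these counts are not of separate results.

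Cldn7 and Jam2 also had first exons whose shares differed between groups in their values but not in the test. The Cldn7 first exon at chr11:69965396-69966149 held 8.80%, 1.36% and 7.53% of first-exon FPKM in WT, 10.1%, 7.17% and 2.73% in dKO and 100%, 99.7% and 31.7% in tKO. Every tKO library was above the rest, and the limma adjusted p was 0.406 against WT and 0.435 against dKO. A Jam2 first exon at chr16:84793426-84793730 had no value above 0 in any WT or dKO library and held 16.8%, 9.01% and 10.7% in tKO, or 0.763 to 1.62 FPKM (limma adjusted p of 0.638 against WT and 0.507 against dKO). It met the rule for testing only through its tKO shares, so its test gives no support to a difference. For Cldn10, a single first exon was listed in all 9 libraries, at chr14:118854732-118855209. The annotation has another first exon 66361 bases upstream, at chr14:118787908-118788370, for which no library listed an event.

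Exon inclusion was measured for 15 skipped-exon events in 8 members, and 0 passed in any comparison, beside 0.105%, 0.12% and 0.135% of 6660 events tested; 0 were at an unadjusted p under 0.05 in limma, beside 4.02%, 4.11% and 4.13%. The event with the most mixed use was the printed Tjp1 exon, number 20 of 28 in transcript ENSMUST00000102592.9 and present in 1 of 7 annotated transcripts. Its 240 bases are coding throughout and add 80 codons to ZO-1, a stretch known as its alpha domain. Inclusion was 55.9%, 36.0% and 38.1% in WT, 29.1%, 39.3% and 31.5% in dKO and 45.2%, 41.8% and 42.9% in tKO. WT overlapped both knockouts, and all tKO libraries were above all dKO libraries. The mean difference was -10.03 ± 5.57 percentage points (SE) in dKO against WT and 10.01 ± 5.57 in tKO against dKO, with limma adjusted p of 0.886 and 0.846.

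**Figure D4:**
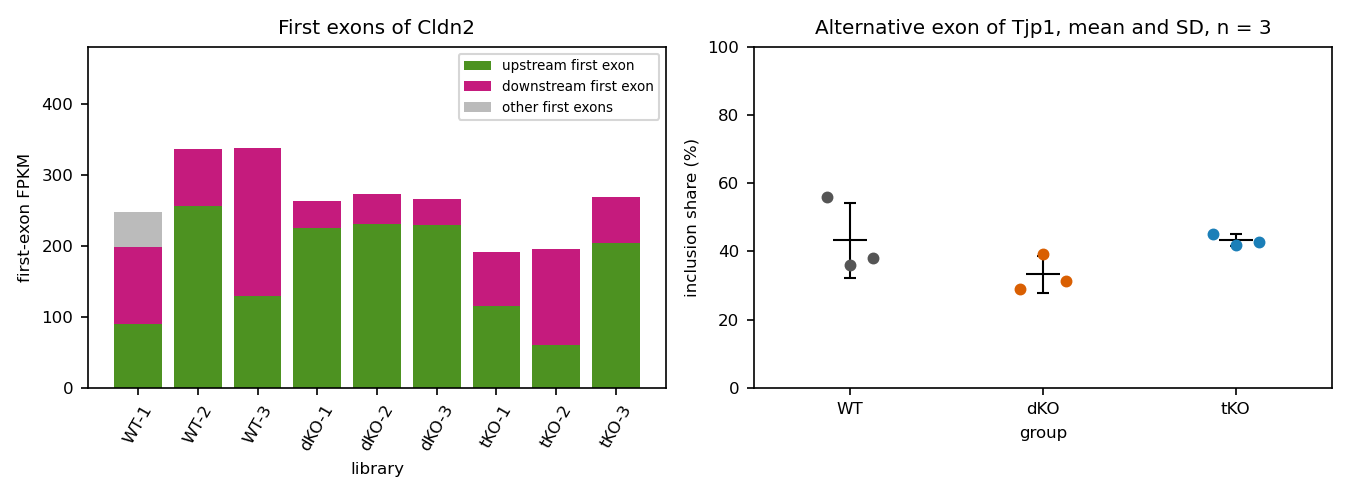
Left, first-exon FPKM of Cldn2 in each library, stacked by first exon; right, inclusion share in percent of the alternative Tjp1 exon, 1 point per library with mean ± SD over 3 libraries. The upstream Cldn2 exon makes up 84.5% to 86.4% of each dKO bar, and Tjp1 inclusion lies between 29.1% and 55.9% in all libraries.

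The partner genes of these junctions gave no call. Of 62 partner genes outside the rule, 49 were tested and 0 passed in dKO against WT, tKO against WT or tKO against dKO (limma), with 10, 4 and 11 at an unadjusted p under 0.05, beside 18.5%, 13.2% and 16.7% of all tested genes. These were 11 tested catenins and nectins (catenins couple cadherins to actin, and nectins are adhesion molecules themselves), 13 polarity partners, 15 junction adaptors, 9 desmosome genes and 1 pannexin or further gap junction gene. In dKO against WT the median log2 fold change was 0.18 for catenins and nectins, 0.10 for polarity partners, 0.17 for adaptors and 0.20 for desmosome genes, beside 0.03 over all genes. In tKO against WT the same medians were -0.04, -0.02, 0.16 and -0.10. Of the desmosome genes, Dsg1a, Dsg3, Dsc1 and Dsc3 had no first- or last-exon row in any library.

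Markers of the cell types in the tissue also differed between groups, and their part in the junction gene results was not tested. Of 7 principal cell markers, Rnase10, Lcn8 and Cst8 fell in dKO against WT and rose in tKO against dKO. Adam28, Ros1, Gpx5 and Esr1 passed in no comparison, with log2 fold changes of -1.84, -0.33, -0.28 and 0.33 in dKO against WT. All 5 cell cycle genes of the list rose in dKO, with sums of 25.3 to 31.4 FPKM in WT, against 51.6 to 71.9 in dKO and 38.7 to 59.5 in tKO. Narrow and clear cell markers, 5 in all, summed to 46.4 to 53.1 FPKM in WT, against 23.3 to 27.3 in dKO and 33.7 to 42.8 in tKO. Car2 fell in dKO against WT and rose in tKO against dKO, while Atp6v1b1 and Atp6v0d2 passed in no comparison. The defining narrow and clear cell markers Foxi1 and Slc4a9 had no first- or last-exon row in any library. The 7 endothelial markers summed to 43.3 to 50.9 FPKM in WT, against 31.6 to 38.7 in dKO and 48.0 to 51.2 in tKO. Of these only Tie1 passed, falling in dKO against WT and rising in tKO against dKO. In dKO against WT the log2 fold changes of Pecam1, Cdh5, Kdr, Emcn, Egfl7 and Tek were -0.22, -0.31, -0.14, -0.44, -0.71 and 0.09. The 4 markers of ciliated efferent duct cells summed to 28.2 to 33.3, 27.7 to 39.1 and 35.9 to 103 FPKM. The 6 smooth muscle markers summed to 796 to 1212, 608 to 772 and 686 to 1047 FPKM. Of these only Actg2 passed in dKO against WT, falling from a mean of 482 to 132 FPKM. The log2 fold changes of Acta2, Tagln, Myh11, Cnn1 and Des were 0.08, 0.10, 0.002, -0.12 and -0.29. Actg2 also passed as higher in tKO against dKO. Fibroblast sums were 529 to 673, 555 to 612 and 692 to 1198 FPKM. Of the 6 fibroblast markers only Pdgfra passed in dKO against WT, with a log2 fold change of -0.55. The log2 fold changes of Col1a1, Col1a2, Col3a1, Dcn and Lum were 0.04, 2.23, -0.09, -0.08 and -0.07. Col1a2 was under 0.05 FPKM in WT libraries 1 and 2 and dKO library 1. Without this gene, singled out after its values were seen, the fibroblast sums were 529 to 545, 415 to 600.2 and 508 to 893 FPKM and overlapped. Macrophage sums were 33.3 to 40.5, 29.8 to 46.0 and 28.4 to 45.3 FPKM. Germ cell markers were at 0 to 0.671, 0 to 0.688 and 0.475 to 7.29 FPKM, with no first- or last-exon row for Prm1 and Tnp1. Neuron and glia markers reached at most 2.05 FPKM.

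The 19 members with a row that were not tested stayed at or below 1.09 FPKM. Of these, 8 were above 0 in a single library, and 1, the cadherin gene Cdh13, was above 0 in every library. Cdh2, which encodes N-cadherin, was listed only in tKO, at 1.09 and 0.659 FPKM in libraries 2 and 3. Cldn34c1, whose reads may be shared with near-identical copies on chromosome X, averaged 0.154, 0.276 and 0.638 FPKM. Among the 44 symbols with no row, 10 were protein-coding genes with a single exon, among them Cldn3, Cldn4, Cldn5 and Cldn8. The files list spliced events, and only 45 of 1331 protein-coding genes without introns had a value, against 14902 of 20620 with a spliced transcript. The levels of those single-exon claudins therefore cannot be read from these events. A further 28 were spliced protein-coding genes, Cldn18 and Crb1 among them, and 6 were pseudogenes or antisense genes.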

How the data were processed

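RNA-seq values of 9 libraries, 3 each of WT, dKO and tKO initial segments, were deposited by the authors as FPKM (per the file headers), with 1 file for each library, for transcript events (first exons, last exons, skipped exons). Per the labels' protocols, mRNA was taken from DNase-treated total RNA with oligo(dT). Of tools, the submitters' processing notes list bcl2fastq 2.17.1.14, and DESeq, with no role. Aligner and genome build: not given in the sources used here. First-exon events ended at a GENCODE M21 (GRCm38) splice site in 81.5% of cases. Events were placed in genes by these splice sites, or else within 5000 bases. The depth is unknown, so no counting interval is given.

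Gene values were tested with limma 3.58.1 (R 4.3.3, mean-variance trend, all 9 libraries) on log2(FPKM + 1), with Benjamini-Hochberg adjustment over 12098 genes with at least 1 FPKM in 3 libraries. A log2 fold change on this scale understates the change of low genes. The step was tested on simulated data. Inclusion and first-exon shares were fitted with limma in percent; the first-exon shares and the placement by the files' own gene names were added after the data were seen. First exons were tested where the gene's first exons summed to at least 5 FPKM and the exon's share reached 10% in some library and lay under 90% in another. Members described in every library were those called, the 12 highest in WT and the 3 with the largest rise and fall in each comparison; results of 1 tested member are not reported here. The members and lists were chosen with earlier results of these data known. Alternatives covered the pseudocount, filters, scaling, gene value, spread, samples, a replicate block and each library left out.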

Additional observations from a re-analysis of the deposited data

How the results depend on the processing

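The unknown depth limits what can be said of genes near 1 FPKM, and 3 libraries a group cannot give an exact permutation p under 0.1. Cldn2 in dKO against WT changed to a log2 fold change of 0.34 when the single highest exon event replaced the sum. The members' median log2 fold change in dKO against WT was 0.20 with a pseudocount of 0.1, 0.071 with no filter, 0.23 with a filter at 5 FPKM and 0.23 with the single highest event. In tKO against WT it was 0.013 with median scaling, 0.029 with quantile normalization and 0.023 with the single highest event, and in tKO against dKO it was 0.0048 with no filter and -0.22 with a filter at 5 FPKM. With 1 library left out it ran from 0.13 to 0.23, from 0.033 to 0.087 and from -0.16 to -0.057 in the 3 comparisons. Called members then numbered 1 to 4 in dKO against WT, 0 in tKO against WT and 0 to 2 in tKO against dKO, and a filter at 5 FPKM, which Gjb6 did not pass, left 0 in tKO against dKO. Genes called, in dKO against WT, tKO against WT and tKO against dKO, were 461, 20 and 255, and with 1 library left out 104 to 454, 7 to 153 and 94 to 328. The lowest counts came without WT library 2, WT library 2 and tKO library 2, and the highest in tKO against WT came without tKO library 1. In tKO against WT they were 31 with no filter, 36 with quantile normalization, 31 with the single highest event and 13 with the 2 groups alone, and in tKO against dKO 164 with the 2 groups alone. Skipped-exon events called over all genes, 7, 8 and 9, became 3, 4 and 3 with a minimum of 5 FPKM, and 4 to 20, 5 to 35 and 7 to 35 with 1 library left out; none of these causes was tested. With the replicate number as a block, genes called were 235, 5 and 145, called members 2 in tKO against dKO (Gjb6 and Cdh16) and exon events 0, 1 and 1. In dKO against WT the block gave limma adjusted p of 0.0799 for Pard6b and 0.0289 for Cdh16, and in tKO against dKO 0.0357 for Cdh16. Whether the replicate numbers pair the libraries is not in the labels. The correlation of same-numbered deviations ran from -0.11 to 0.0098 over 9 pairs. This shows no strong shared deviation, but with 3 libraries a group it cannot settle the pairing. No scaling moved the median of all genes by more than 0.1 on the log2 scale.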
